A study of Mus musculus with 8 samples.

Results

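Germline and cancer-testis genes are genes used in sperm, eggs and their precursors and kept silent in most other tissues; several are switched on in tumours. Their expression was followed in interfollicular epidermis, the part of the epidermis outside the hair follicles. Mice labelled as conditional knockouts of the histone methyltransferase G9a were compared with mice labelled as wild type. The set holds 40 genes by name, chosen for their germline roles with earlier results of these arrays known. Every probe set that the array's annotation assigns to a member was used. Of the 40 genes 37 had a probe set of their own, and 43 probe sets measured them, against 17097 genes and 45037 probe sets in all. No probe set was assigned to Sycp1, Tdrd6 or Tuba3b alone, so these 3 members were not analysed here. Where a gene had several probe sets, the summary used that with the highest mean over all arrays.

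The study held 8 samples on 1-colour arrays, 4 from mice labelled G9a cKO (conditional knockout) and 4 from mice labelled G9a WT, the wild type. Animals of both groups had been treated with DMBA, a carcinogen, and TPA, a tumour promoter (0.25 and 0.02 mg/ml, 200 µl of each), weekly on shaved back skin for 6 weeks from an age of 8 weeks, and were labelled as 15 weeks old, with skin described as pre-neoplastic. The labels do not name the promoter or Cre line of the knockout, nor the sex of the animals, nor whether each replicate was a separate animal, so each p-value rests on the spread between arrays, which may be technical. No untreated skin was among the samples.

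G9a, encoded by Ehmt2, adds methyl groups to lysine 9 of histone H3, a mark of silent chromatin, together with its partner GLP. Germline genes are known to be kept silent in somatic cells by DNA methylation of CpG-rich promoters and by a Polycomb-type complex that carries E2F6, which binds TCCCGC, and the pair MGA and MAX, which binds the E-box CACGTG. G9a and GLP have been found with that complex, and Mage genes on the X chromosome are a known group silenced by G9a in embryonic stem cells.

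Ehmt2 read 6.30 to 7.07 in cKO and 9.25 to 9.77 in WT at probe set 1460692_PM_at (log2), while its other probe set, 8.29 to 8.42 against 8.22 to 8.45, was not called (log2 fold change 0.01, limma adjusted p = 0.996). The labelled tissue was checked on keratinocyte markers: 9 of the 11 measured, among them the keratins Krt5 and Krt14, read above 10 in every array, and none was called. Lists of fibroblast, Langerhans and T cell, and melanocyte and endothelial markers held no called gene among 6, 7 and 7 measured. Their log2 fold changes ran from -0.09 to 0.18, -0.10 to 0.49 and -0.06 to 0.25. The 95% intervals (unadjusted) reached from -0.28 to 0.32, -0.20 to 1.19 and -0.25 to 0.44. A difference in the make-up of the tissue was not tested. Xist, expressed from the inactive X of females, read 4.50 to 4.59 and the Y-linked gene Eif2s3y 8.99 to 9.55 over the 8 arrays, with no array apart from the others in either gene. Low Xist with high Eif2s3y is the pattern of male animals, in both groups, though the labels do not state the sex. On the first principal component over all genes (36.5% of the variance) WT 4 stood at 7.37, among cKO arrays at -0.89 to 12.7 while the other WT arrays lay at -14.7 to -10.0. On the second (25.0%) cKO 2 stood at 14.2 and WT 4 at -16.3, the ends of the range. Values without both arrays are therefore given beside each called member and beside some of the other genes. The arrays left out were picked from these same data. Without both, 436 genes were called over all genes, against 167 with all 8 arrays.

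Promoter sequence is shown first, as a description, and whether it bears on the change in cKO was not tested. RefSeq's table (build GRCm38.p6) held at least 1 start for 34 of the 40 members, and the 250 bases before each start were read. The 3 members that rose in cKO, Ssxb1, Rhox5 and Nxf7, had few CpG dinucleotides there, the sites of DNA methylation: 1 in Ssxb1, 4 in Rhox5 and 2 in Nxf7. They lie on the X chromosome at chrX:8413055-8413304 (plus strand), chrX:37754358-37754607 (plus strand) and chrX:135598782-135599031 (minus strand). Capitals mark each CpG, and for Nxf7 the first of 2 neighbouring starts is given.
Ssxb1: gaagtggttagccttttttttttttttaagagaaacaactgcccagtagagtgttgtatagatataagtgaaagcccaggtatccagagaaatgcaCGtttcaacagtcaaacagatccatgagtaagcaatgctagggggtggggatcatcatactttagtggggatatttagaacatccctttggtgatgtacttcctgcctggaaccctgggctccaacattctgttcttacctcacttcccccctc
Rhox5: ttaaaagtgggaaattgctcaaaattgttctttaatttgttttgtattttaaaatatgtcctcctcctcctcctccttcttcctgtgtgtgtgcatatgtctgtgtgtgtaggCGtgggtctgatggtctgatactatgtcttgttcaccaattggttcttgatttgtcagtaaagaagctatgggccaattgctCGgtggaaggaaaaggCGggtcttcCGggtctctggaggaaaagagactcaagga
Nxf7: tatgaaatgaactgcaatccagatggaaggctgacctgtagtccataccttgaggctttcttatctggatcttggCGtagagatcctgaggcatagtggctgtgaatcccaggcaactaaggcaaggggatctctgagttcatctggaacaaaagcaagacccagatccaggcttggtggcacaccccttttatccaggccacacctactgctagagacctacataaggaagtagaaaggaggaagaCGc

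For comparison 3 members that were not called are shown: Ddx25, the uncalled member with the largest difference, and Ddx4 and Stag3, a piRNA pathway and a cohesin gene. Their windows are chr9:35558471-35558720 (minus strand), chr13:112652311-112652560 (minus strand) and chr5:138280259-138280508 (plus strand), with 34, 31 and 26 CpG dinucleotides. These numbers are among the highest of the members. The median over the autosomal members was 15.5, and Magea3, Stra8 and Zp3, also not called, had 0, 5 and 5. Capitals mark each match to TCCCGC or CACGTG on either strand (GCGGGA is TCCCGC read on the other strand). The window of Ddx25 holds 1 TCCCGC, that of Ddx4 a match to each motif, and that of Stag3 1 CACGTG.
Ddx25: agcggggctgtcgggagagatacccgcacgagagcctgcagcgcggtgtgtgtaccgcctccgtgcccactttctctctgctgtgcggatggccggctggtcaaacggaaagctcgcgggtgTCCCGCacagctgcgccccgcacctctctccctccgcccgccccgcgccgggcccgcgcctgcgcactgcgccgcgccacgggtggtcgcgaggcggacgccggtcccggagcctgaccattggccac
Ddx4: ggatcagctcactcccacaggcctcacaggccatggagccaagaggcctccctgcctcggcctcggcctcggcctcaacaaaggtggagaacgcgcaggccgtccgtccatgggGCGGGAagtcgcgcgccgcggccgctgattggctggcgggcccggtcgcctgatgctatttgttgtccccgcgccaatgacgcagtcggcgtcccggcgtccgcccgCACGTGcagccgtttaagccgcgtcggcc
Stag3: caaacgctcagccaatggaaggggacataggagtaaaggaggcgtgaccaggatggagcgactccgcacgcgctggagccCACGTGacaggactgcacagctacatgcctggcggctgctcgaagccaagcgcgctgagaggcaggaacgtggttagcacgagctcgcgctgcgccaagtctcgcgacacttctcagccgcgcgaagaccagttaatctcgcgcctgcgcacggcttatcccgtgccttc

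Over the 30 autosomal members with a start in the table, the median was 15.5 CpG dinucleotides (range 5 to 40, the richest start of each gene), beside 14 over 13091 autosomal genes measured on the array. The 4 X-linked members with a start had 0 to 4, beside a median of 9 over 514 X-linked genes measured. The promoters of 22 of 34 members (64.7%) held TCCCGC or CACGTG on either strand, against 33.5% of 13605 measured genes with a start. TCCCGC was found in 41.2% of the members and 27.9% of measured genes, and CACGTG in 35.3% and 8.75%. Ddx4, Hormad1, Mael and Sycp3 held both. Magea3, which was not called, had 0 CpG dinucleotides. None of the 4 X-linked members held either motif, and 22 of the 30 autosomal members did. Few CpG dinucleotides, the lack of a motif and X linkage went together in the risen members and cannot be told apart. These motifs can share an end base, and a match describes letters only, not a bound site.

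**Figure D1:**
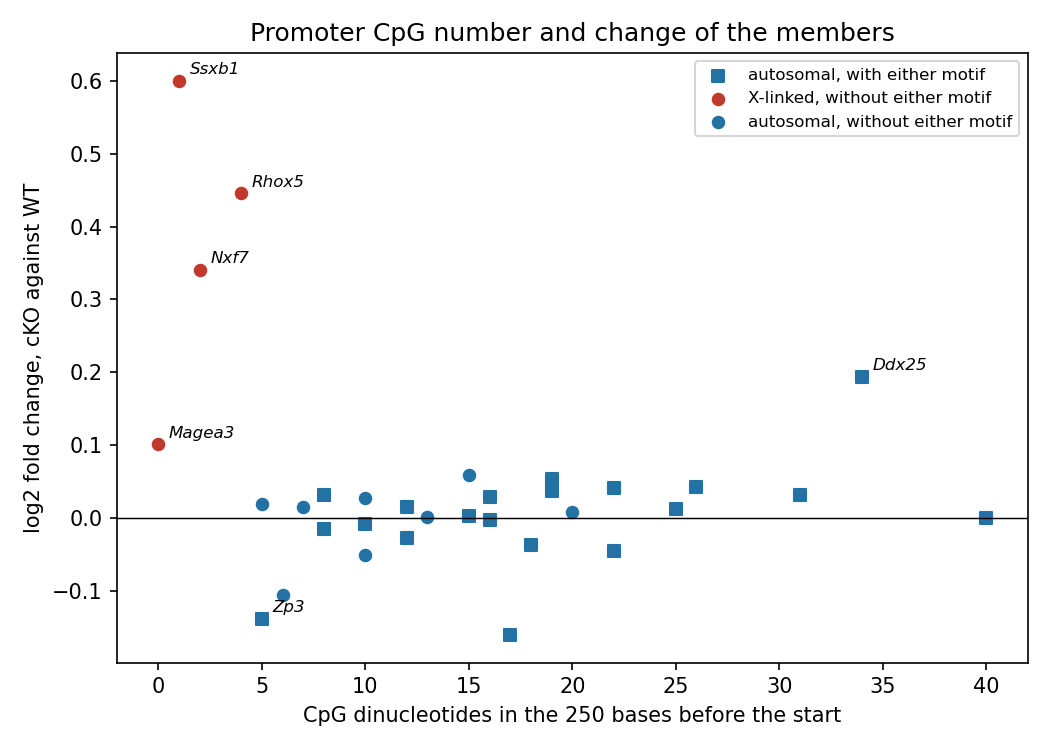
Each point is 1 of the 32 members that had both a promoter entry and a probe set, with the number of CpG dinucleotides in the 250 bases before its start (x axis, richest start) and its log2 fold change in cKO against WT (y axis); red marks the X chromosome and squares mark promoters with TCCCGC or CACGTG. Ssxb1, Rhox5 and Nxf7 lie at 4 or fewer CpG dinucleotides and between 0.34 and 0.60, whereas the other members lie between -0.16 and 0.19.

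A promoter poor in CpG was not found in the members alone. Of all 101 genes called higher in cKO that had a start in the table, 44.6% had 5 or fewer CpG dinucleotides, against 28.6% of 21 genes called lower and 25.1% of all 13605 measured genes. These shares are descriptions with no test. Expression was tested in both directions with limma over all 17097 genes, and a gene was called at a Benjamini-Hochberg adjusted p under 0.05.

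Of the 37 measured members 3 rose in cKO, none fell and 34 were not called. Over all genes tested, 0.790% were called higher and 0.187% lower, 0.977% in all. The members were listed with results of these arrays known, so that their count is a description of the list and no support for a shift of germline genes. Since the samples are bulk tissue, more RNA per cell and more cells making it cannot be told apart. The median log2 fold change was 0.01 over the 37 members and 0.01 over all genes. The 3 members that rose, Ssxb1, Rhox5 and Nxf7, were all X-linked; the X chromosome carries 5 of the 37 measured members. Over all 596 X-linked genes, 2.35% were called higher and none lower. The other 2 X-linked members, Magea3 and Tex11, and all 32 autosomal members were not called.

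Ssxb1 belongs to the family of SSX cancer-testis antigens, nuclear proteins best known from human tumours. Its probe set 1449912_PM_at read 6.38, 6.29, 6.36 and 6.44 in cKO 1 to 4 and 5.66, 5.67, 5.74 and 6.00 in WT 1 to 4 (log2). All cKO arrays lay above all WT arrays, and WT 4 lay nearest to them. The means were 6.37 ± 0.06 and 5.77 ± 0.16 (SD, n = 4 each), a rise of 0.60 on the log2 scale (SE 0.08) or 1.52-fold, with a limma adjusted p of 0.00612. The exact permutation test gave 0.0286 (unadjusted), the smallest that 4 against 4 allows. Every gene whose groups do not overlap gets this value, the uncalled members Ddx25 and Zp3 included. Such genes made up 5.72% of all genes, so the value only restates that the groups were separate, here and below. Ssxb1 stayed called whichever array was left out (0.56 to 0.68, highest limma adjusted p = 0.0298) and without both cKO 2 and WT 4 (0.70, adjusted p = 0.000758).

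Rhox5, also known as Pem, is a homeobox gene of the X-linked Rhox cluster that acts in the somatic Sertoli cells of the testis and in the placenta. It read 5.79, 5.99, 6.03 and 5.86 in cKO 1 to 4 and 5.58, 5.52, 5.42 and 5.38 in WT 1 to 4 at probe set 1423429_PM_at (log2). The groups did not overlap, but cKO 1 and WT 1 were only a short way apart. Rhox5 rose by 0.45 (SE 0.07), from 5.47 ± 0.09 to 5.92 ± 0.11 (SD, n = 4 each) or 1.36-fold, at a limma adjusted p of 0.0163 and an exact permutation p of 0.0286. The call was lost without cKO 2 (limma adjusted p = 0.0588), cKO 3 (0.0671) or WT 3 (0.0698), with changes of 0.41 to 0.43, and was kept without both cKO 2 and WT 4 (0.39, adjusted p = 0.0365).

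Nxf7 belongs to the family of NXF mRNA export factors, whose X-linked members are known mainly from testis and brain. Its probe set 1427399_PM_a_at read 4.71, 4.72, 4.69 and 4.55 in cKO 1 to 4 and 4.21, 4.41, 4.33 and 4.36 in WT 1 to 4 (log2). The lowest cKO array, cKO 4, lay above the highest WT array, WT 2. Nxf7 rose by 0.34 (SE 0.06), from 4.33 ± 0.09 to 4.67 ± 0.08 (SD, n = 4 each) or 1.27-fold, with a limma adjusted p of 0.0324 and an exact permutation p of 0.0286. This was the least secure of the 3 calls: it was lost when all 45037 probe sets were fitted (limma adjusted p = 0.0532), where 0.466% of probe sets were called, without both cKO 2 and WT 4 (0.33, adjusted p = 0.0519), with the replicate number as a block (adjusted p = 0.0751), and without any 1 of 5 arrays, cKO 1, cKO 2, cKO 3, WT 1 or WT 3 (adjusted p = 0.0739 to 0.128). Ssxb1 and Rhox5 passed over all probe sets, with limma adjusted p of 0.0117 and 0.0290.

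**Figure D2:**
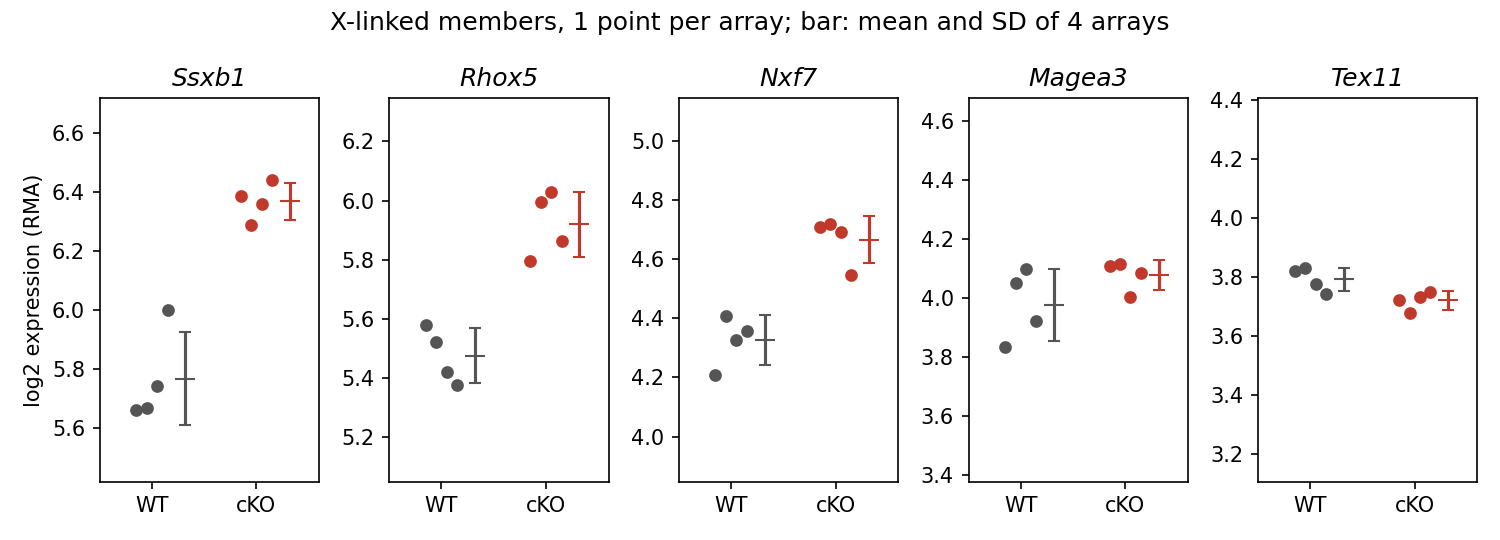
Log2 expression (RMA) of the 5 X-linked members in each array, 1 point per array in replicate order, with the mean and SD of 4 arrays as a bar beside each group; each panel spans the same number of log2 units. In Ssxb1, Rhox5 and Nxf7 all cKO points lie above all WT points, while those of Magea3 and Tex11 overlap.

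Magea3, of the melanoma antigen family, read at most 4.11 in cKO and 3.83 to 4.10 in WT, and the groups overlapped. It stood at 0.10 (SE 0.06, limma adjusted p = 0.737, 95% interval -0.04 to 0.24). Its probe set 1450542_PM_s_at carries the suffix _s_at, which marks probes shared by several transcripts, so other Magea genes may add to it. Magea4, Magea5 and Magea6 stood within 0.03 of 0. Mageh1, an X-linked Mage gene outside the set, was among the X-linked genes called higher (0.32, SE 0.06, limma adjusted p = 0.0338). Tex11, a meiosis gene whose product helps chromosomes pair, read 3.68 to 3.75 in cKO and 3.74 to 3.83 in WT (-0.07, SE 0.04, limma adjusted p = 0.693).

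The measured relatives of Rhox5 and Nxf7, and the nearest measured neighbours of all 3 risen genes, were not called. These were looked at after the members' values had been seen. Rhox6, Rhox9 and Rhox13, the other measured genes of the Rhox cluster, stood between 0.00 and 0.06 (log2), and Nxf1, Nxf2 and Nxf3 between -0.02 and 0.04. With the 4 Magea genes, which are not relatives of the risen genes, these make 10 genes. None of them was called in any setting that tested it. The setting limited to the 50% of genes with the higher means tested only 2 of them. Ssxb1 was the only Ssxb gene named on the array, and signal from its near copies at this probe set cannot be told apart. Of the 4 nearest measured genes on each side, none was called around Ssxb1 (-0.11 to 0.27), Rhox5 (-0.06 to 0.10) or Nxf7 (-0.10 to 0.09). The largest of these 24 differences, at B630019K06Rik beside Ssxb1, was 0.27 (limma unadjusted p = 0.0196, adjusted p = 0.376). On the other side of Ssxb1, Slc38a5 stood at 0.16 (limma unadjusted p = 0.0257, adjusted p = 0.421). A little farther from Nxf7 lie Armcx2, Bex1 and Bex2, which were among the 14 X-linked genes that rose, at 0.40, 1.26 and 0.37.

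No gene of the synaptonemal complex or the chromosome axis, which hold paired chromosomes together in meiosis, was called. The 8 measured members were the axis and lateral element genes Sycp2, Sycp3, Hormad1 and Hormad2, the central element gene Syce1, and the meiotic cohesin genes Rec8, Smc1b and Stag3. Their log2 fold changes ran from -0.01 to 0.04 with a median of 0.02, and none had an unadjusted p under 0.05. Stag3, the farthest from 0, read 3.82, 3.84, 3.83 and 3.83 in cKO 1 to 4 and 3.75, 3.75, 3.86 and 3.79 in WT 1 to 4 (0.04, SE 0.04, limma adjusted p = 0.880). WT 3 was its highest array and WT 1 and WT 2 its lowest, so the groups overlapped. Without WT 3 the difference of Stag3 was 0.07. The widest 95% intervals (unadjusted) of the 8 genes reached -0.13 and 0.16.

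None of the 6 genes of meiotic entry and recombination was called either. Stra8 and Meioc act when germ cells enter meiosis, Spo11 makes the DNA breaks that start recombination, Dmc1 is the recombinase that repairs them, and Tex15 is needed for that repair and for silencing of transposons. With Tex11 their log2 fold changes ran from -0.07 to 0.04, with none at an unadjusted p under 0.05. Dmc1 varied most between arrays, from 4.82 to 5.22 in cKO and 4.80 to 5.25 in WT, and its interval was the widest of the group, -0.27 to 0.21. Its second probe set stood at 0.01.

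The piRNA pathway guards the germline against transposons with PIWI proteins loaded with small RNAs. Of its 11 measured members none was called: the PIWI genes Piwil1, Piwil2 and Piwil4, the helicase genes Ddx4 and Mov10l1, the Tudor domain genes Tdrd1, Tdrd5 and Tdrd9, and Asz1, Mael and Tex19.1, which act in the same defence. Their median log2 fold change was 0.00. Piwil2 was the farthest from 0, at 5.91, 5.71, 5.84 and 5.64 in cKO 1 to 4 and 6.02, 6.00, 5.84 and 5.77 in WT 1 to 4. The groups overlapped (-0.13, SE 0.08, limma adjusted p = 0.705). The other 10 lay between -0.05 and 0.06, and the 95% intervals of the 11 reached -0.31, in Piwil2, and 0.17. Without cKO 4 the difference of Piwil2 was -0.09.

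**Figure D3:**
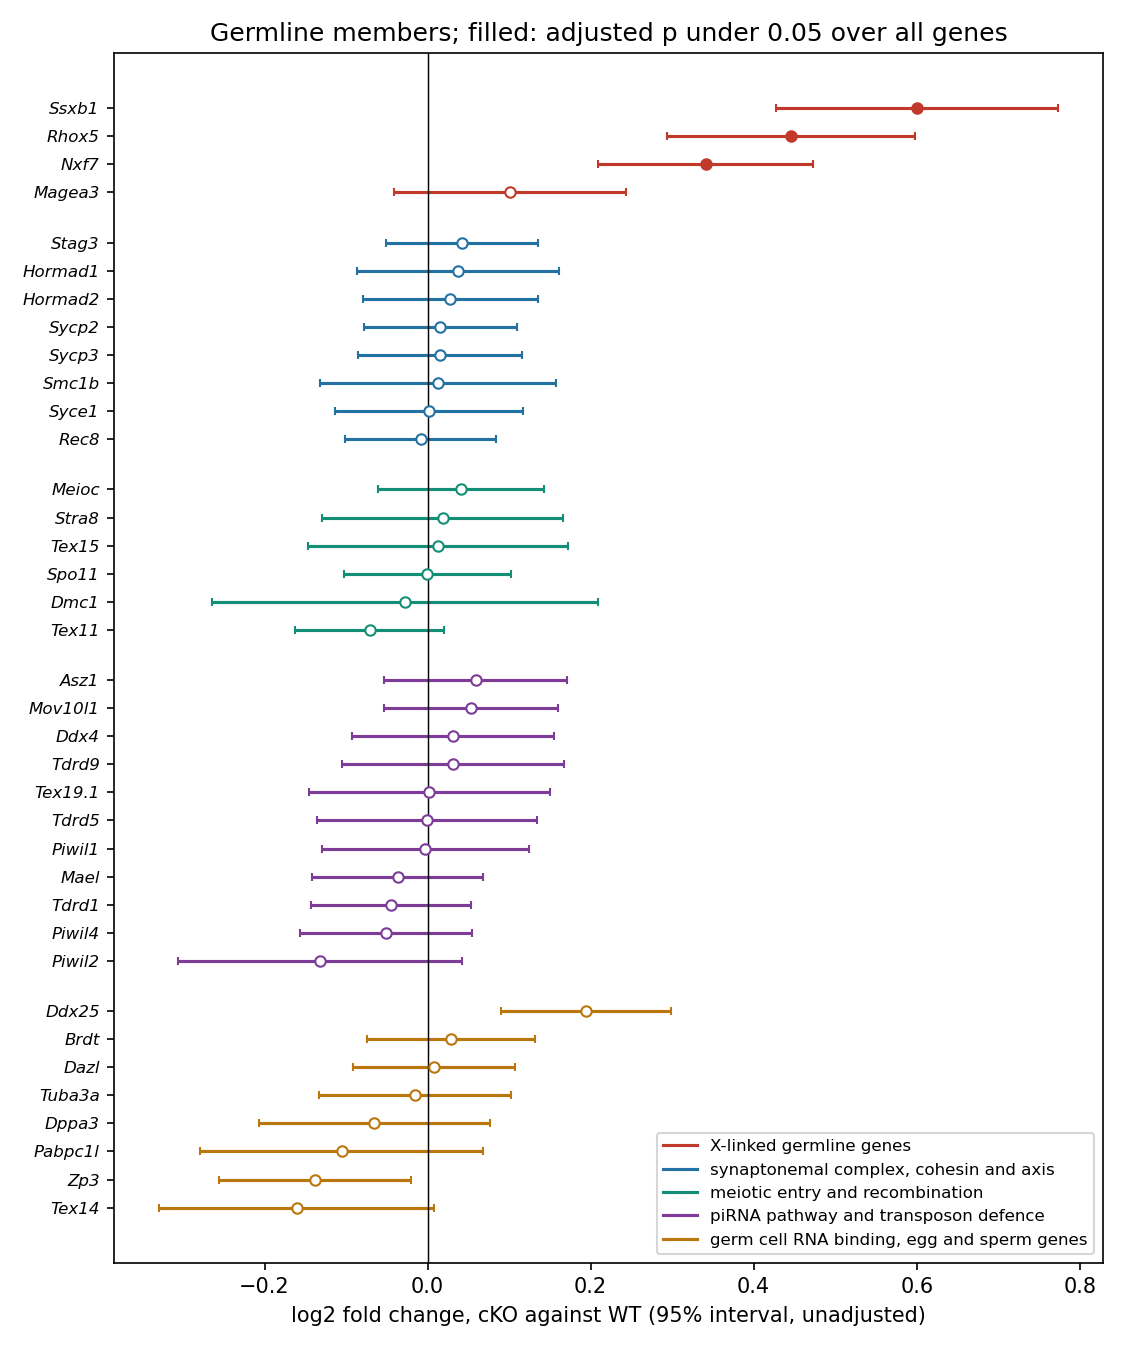
Log2 fold change of each of the 37 measured members in cKO against WT (x axis) with its unadjusted 95% interval from limma, by role; filled points passed the threshold over all genes. The filled points are Ssxb1, Rhox5 and Nxf7 at 0.34 to 0.60, and every other member lies between -0.16 and 0.19.

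The remaining 8 measured members are germ cell RNA regulators and egg and sperm genes, and none was called. Ddx25, an RNA helicase of developing sperm, came nearest: it read 5.54, 5.56, 5.48 and 5.44 in cKO 1 to 4 and 5.25, 5.32, 5.31 and 5.36 in WT 1 to 4. The groups did not overlap, and the difference was 0.19 (SE 0.05, 95% interval 0.09 to 0.30, limma adjusted p = 0.115). Ddx25 is autosomal, on chromosome 9, and passed with array weights (limma adjusted p = 0.0305). That setting called 604 genes over all genes, against 167 in the main fit, and Ddx25 passed in no other setting. Zp3, a protein of the coat around the egg, also had separate groups, in the other direction, at 4.25 to 4.44 in cKO and 4.45 to 4.54 in WT (-0.14, SE 0.05, limma adjusted p = 0.421). With the 3 risen genes these make 5 of 37 members whose groups did not overlap, 4 higher and 1 lower in cKO, where 5.72% of all genes had separate groups and 3.80% were separate and higher in cKO.

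Tex14, a component of the bridges between dividing germ cells, stood at -0.16 (SE 0.08, limma adjusted p = 0.570), with 5.25 to 5.50 in cKO and 5.43 to 5.68 in WT. Pabpc1l, a poly(A)-binding protein of the egg, read 5.67, 5.95, 5.78 and 5.82 in cKO 1 to 4 and 6.00, 5.94, 5.98 and 5.73 in WT 1 to 4 (-0.11, SE 0.08, limma adjusted p = 0.805). WT 4 lay among the cKO arrays. The difference was -0.17 without WT 4, -0.06 without cKO 1 and -0.22 without both cKO 2 and WT 4 (limma adjusted p = 0.0988), and was called in none of these. The RNA-binding protein gene Dazl, the testis bromodomain gene Brdt and Dppa3, which guards maternal DNA methylation marks in the early embryo, lay between -0.07 and 0.03.

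Tuba3a, an alpha-tubulin of testis, gave the highest readings of all members: 7.57, 7.46, 7.49 and 7.42 in cKO 1 to 4 and 7.51, 7.49, 7.40 and 7.58 in WT 1 to 4. The groups overlapped throughout (-0.01, SE 0.05, limma adjusted p = 0.981). Its probe sets carry the suffixes _s_at and _x_at, which mark probes that other transcripts may share, and Tuba3b, its near copy, had none of its own, so the source of this signal is uncertain. In all, 6 members had a second probe set, and the second sets of Asz1, Brdt, Dazl, Dmc1, Piwil4 and Tuba3a stood between -0.03 and 0.06, with no call.

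**Figure D4:**
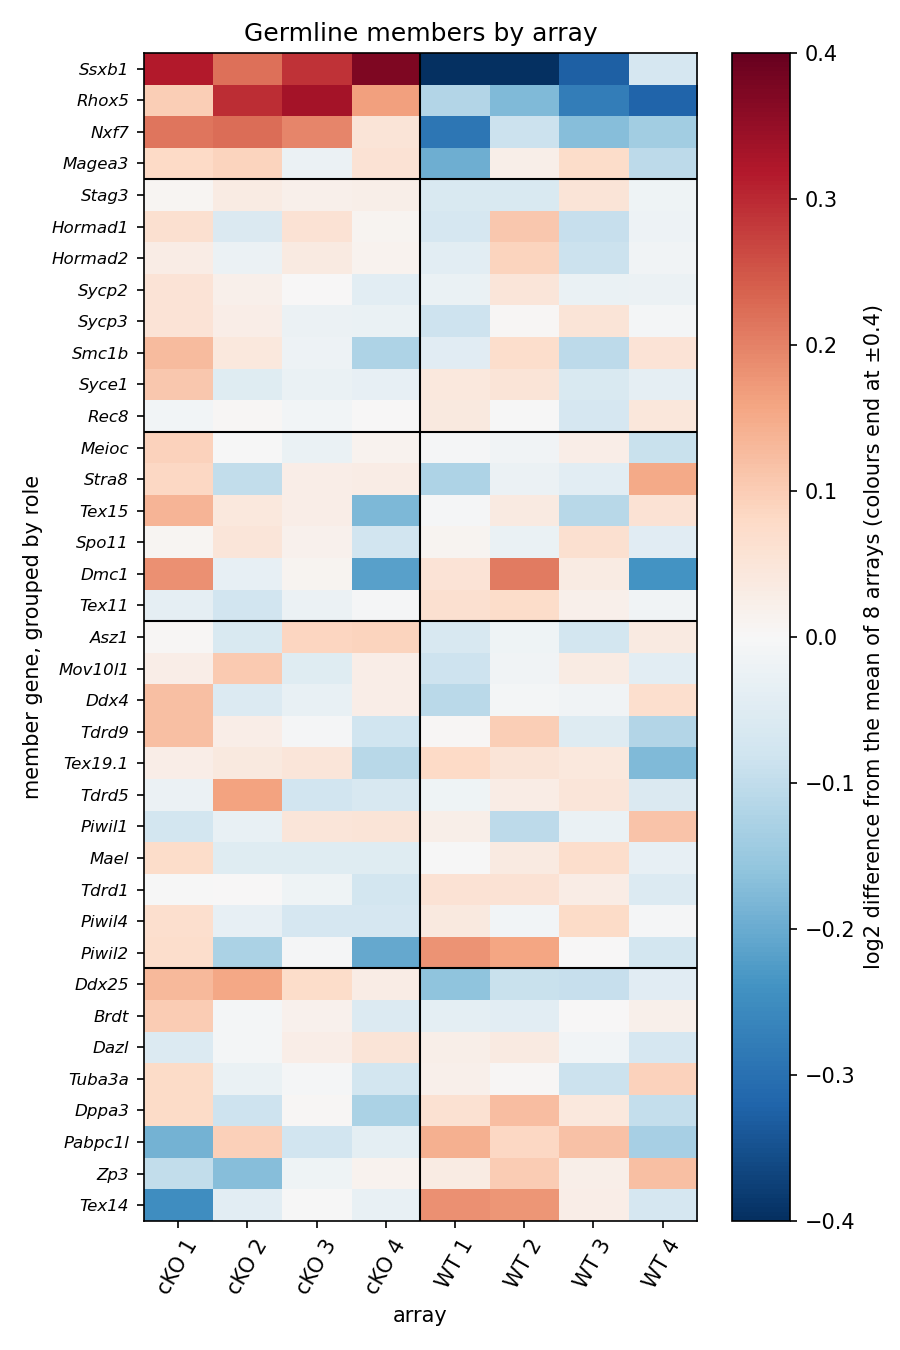
Difference of each array (columns) from the mean of the 8 arrays (log2, colour) for the 37 measured members (rows), with lines between the role groups and between cKO and WT. Ssxb1, Rhox5 and Nxf7 are red in all 4 cKO arrays and blue in all 4 WT arrays; among the other 34 rows, cKO 1 lies above the row mean in 25 and WT 4 below it in 24, while the other 6 arrays lie above it in 14 to 22.

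The arrays give no call of detection, so the members' readings were set beside those of 76 olfactory and vomeronasal receptor genes, which skin is not known to use. These had a median of 4.09 and a 95th percentile of 5.34 (log2, mean over 8 arrays), and none of them was called. The highest receptor gene read 6.79, and Tuba3a was the only member above it, so Ssxb1 and Rhox5 lay within the receptor range. Of the 37 members 27 lay at or below 5.34, Nxf7 among them, and 10 above it: Brdt, Ddx25, Mov10l1, Pabpc1l, Piwil2, Rhox5, Ssxb1, Tex14, Tex19.1 and Tuba3a. Probe sets differ in their background, so this is no test of detection. For readings near background a log2 fold change understates a change in RNA, and the intervals above limit the change in signal only.

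A further list of 79 germline genes outside the set, of which 60 were measured, held no gene called higher or lower by limma, with 1 at an unadjusted p under 0.05 and a median log2 fold change of 0.01. Syce2, a central element gene of the synaptonemal complex, was the farthest from 0: it read 8.08, 7.96, 7.87 and 7.81 in cKO 1 to 4 and 8.32, 8.48, 8.30 and 8.08 in WT 1 to 4. Its groups touched without overlapping, cKO 1 beside WT 4 (-0.37, SE 0.09, limma adjusted p = 0.118). Without WT 4 it passed (-0.44, adjusted p = 0.0264), and likewise without both cKO 2 and WT 4 (-0.45, adjusted p = 0.0321). Over all genes, 250 and 436 were called in these fits, against 167 in the main fit. Rec114, which works with Spo11, stood at 0.20 (SE 0.11, limma adjusted p = 0.674), at 7.32 to 7.84 in cKO and 7.20 to 7.54 in WT. The difference of Rec114 was 0.11 without cKO 2 and 0.05 without both cKO 2 and WT 4 (limma adjusted p = 0.845).

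Among 8 markers of sperm and testis cells, Insl3 rose, a hormone of the Leydig cells of the testis. It read 7.85, 7.72, 7.71 and 7.73 in cKO 1 to 4 and 7.27, 7.35, 7.41 and 7.49 in WT 1 to 4, a rise of 0.37 (SE 0.06, limma adjusted p = 0.0184), and the call was lost without cKO 3, WT 1, WT 2 or WT 3 (adjusted p = 0.0561 to 0.0657) and with the replicate number as a block (adjusted p = 0.0675). Without both cKO 2 and WT 4 it stood at 0.42 (limma adjusted p = 0.0144). Its neighbour Jak3, a kinase gene of immune cells, rose by 0.33 (SE 0.06, limma adjusted p = 0.0466), and the probe set of Insl3 carries the suffix _s_at, so what it owes to Insl3 is uncertain. The other 7, among them the sperm protamine genes Prm1 and Prm2 and the Sertoli cell hormone gene Amh, stood between -0.12 and 0.06 and were not called.

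None of 24 measured genes of the silencing machinery was called at the probe set standing for it, with 3 at an unadjusted p under 0.05 and a median log2 fold change of 0.00. These include the complex of E2f6, Mga, L3mbtl2 and Pcgf6, the H3K9 methyltransferase genes Setdb1 and Ehmt1, and the DNA methylation genes Dnmt1, Dnmt3a, Dnmt3b and Uhrf1. The probe set standing for Ehmt2 in this list is the one that was not called.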

How the data were processed

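Expression was measured on 1-colour arrays in 8 samples of mouse epidermis. From 25 ng of RNA, cDNA was made with WTA2 (17 cycles), per the labels' protocols. The authors deposited log2 values made with RMA, per the submitters' processing notes (settings not given in the sources used here); the log base was judged from their range, 3.06 to 13.0. RMA equalises array distributions, so a shift of all genes together would not be seen. With 4 arrays per group, their number limits the precision.

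Control probe sets (104) were dropped and genes named from the platform annotation, updated through RefSeq (GRCm38.p6). Groups were compared with limma 3.58.1 in R 4.3.3. In 20 simulated runs of cKO against WT over 17097 genes, 80.8% of changes of 0.5 (log2), 97.6% of 1.00 and 99.6% of 2.00 were recovered, and 5.65% of calls were false. Whether these rates hold for the measured arrays was not tested. No change under 0.5 was simulated, so recovery at the size of Rhox5 (0.45) or Nxf7 (0.34) was not tested. Plots used matplotlib 3.10.9.

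The members and lists were chosen with earlier results of these data known. Genes given array by array are members past the threshold, the 3 with the highest readings, the largest difference of each role group, the 2 largest of the further germline genes, and genes past the threshold in other lists. Magea3, Mageh1, Zp3, Tex14, Dmc1, relatives and neighbours were added after their values were seen. Alternatives were other probe set rules, a filter on dim genes, other normalisations, a prior with trend, array weights, the replicate block, a threshold of 0.1, and leaving out arrays.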

Additional observations from a re-analysis of the deposited data

Results flagged for a closer look

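The lowest cKO reading of Nxf7, 4.55 in cKO 4, lay far below the other 3 cKO arrays for their spread, and the highest cKO reading of Insl3, 7.85 in cKO 1, lay far above the other 3. Both exceeded Dixon's critical value for 4 samples, in 24 groups of arrays checked over 12 genes. Chance flags about 1 in 20 groups. Both readings stayed on the cKO side of every WT array.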

How the results depend on the processing

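Of the 3 called members, Ssxb1 was called in every setting that tested it, and no called member changed direction. The number of called members was 0 among the 50% of genes with the higher means, a filter that kept only Tuba3a of the 37, and 2 to 4 in the other settings with all 8 arrays; leaving out single arrays gave 1 to 3, with 1 (Ssxb1) without cKO 2, cKO 3 or WT 3. The number of genes called over all genes was 69 among that 50%, 604 with array weights, 436 without both cKO 2 and WT 4, 280 at an adjusted p under 0.1, and 81 to 250 without single arrays. Further germline genes numbered 1 called with array weights and 1 without both cKO 2 and WT 4, Syce2 each time, and 0 to 1 without single arrays. Silencer genes numbered 1 called with the mean of all probe sets, 1 with the probe set of highest WT mean and 1 over all probe sets, which was Ehmt2, and 1 with array weights, which was Pcgf6 at -0.19. The sign of Tuba3a, near 0, turned to 0.0056 with the mean of its probe sets, 0.0076 with array weights and 0.020 without both cKO 2 and WT 4, and its change ran from -0.046 to 0.013 without single arrays. The members' median ran from -0.0038 to 0.027 in the settings that tested all 37. In the filter that kept only Tuba3a it was the change of that gene, -0.015. With the replicate number as a block, 2 members were called, since Nxf7 (0.34, limma adjusted p = 0.0751) did not pass; Insl3 did not pass either (0.37, adjusted p = 0.0675). The numbers were not taken as pairs: deviations of same-numbered arrays correlated at 0.14, 0.18, -0.59 and 0.31, and 2 of 4 cKO arrays correlated best with their own number. Most members read near the level of receptor genes, where small changes in RNA may not show.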
